A study of Mus musculus with 12 samples.

Results

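Basophils are rare granulocytes of the blood that enter skin during type 2 immune responses. In mice they are known to be needed for acquired resistance to feeding ticks of some species, and interleukin-3 (IL-3) is their main growth and activation factor. They carry IgE on the high-affinity IgE receptor, a receptor they share with mast cells, and release histamine and proteases when it is crosslinked. The 8 genes described here were chosen by name: the proteases Mcpt8 and Prss34, the activating receptor Cd200r3, the IL-3 receptor chains Il3ra, Csf2rb and Csf2rb2, and the IgE receptor chains Fcer1a and Ms4a2. All 8 were found by symbol among the 25070 genes of the deposited table.

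RNA of mouse skin was sequenced in 12 libraries, all labelled as 4 days after a tick bite. The groups, by immunization, are naive (2 libraries, described as having no bite in spite of that time), first exposure (3 bitten), ticks 2x (3 bitten), ticks 3x (3 bitten) and saliva immune (1 bitten). The labels used here give neither strain, age and sex of the mice nor the tick species, and they do not tie libraries to animals, so p-values measure the spread between these samples, which may be technical. The titles of first exposure and saliva immune libraries form 1 numbered series and those of the other 8 libraries another, so that any comparison of first exposure with naive skin, ticks 2x or ticks 3x cannot be told apart from one between title series.

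Levels are in CPM (reads of a gene scaled to the reads of its library), as deposited by the authors. Depth was estimated from the spacing of the low values at 12.5 to 29.8 M reads per library, so that 3 reads, taken as the detection floor, lay between 0.101 and 0.24 CPM (counting error only). Among the markers of skin itself, the hair follicle genes differed most between libraries of the same group, with summed levels between 16.4 and 23650 CPM within ticks 2x. In bulk tissue, fewer cells of a type and less RNA per cell cannot be told apart.

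The promoters of Mcpt8, Cd200r3, Fcer1a and Ms4a2 are given here on GRCm38.p6 (from RefSeq, 5′ to 3′ on the gene's strand). Each runs from 250 bases before to 50 bases after the start site of its RefSeq entry. The Mcpt8 window lies wholly within the span of the gene (56082163 to 56085499), so sequence before that span was not searched. Any relation of these sequences to the levels of the genes was not tested. Capitals mark AGATAA, a sequence bound by GATA factors such as the basophil and mast cell regulator GATA2, and TGTGGT, a sequence bound by RUNX factors, on either strand.
Mcpt8, chr14:56085148-56085447, - strand: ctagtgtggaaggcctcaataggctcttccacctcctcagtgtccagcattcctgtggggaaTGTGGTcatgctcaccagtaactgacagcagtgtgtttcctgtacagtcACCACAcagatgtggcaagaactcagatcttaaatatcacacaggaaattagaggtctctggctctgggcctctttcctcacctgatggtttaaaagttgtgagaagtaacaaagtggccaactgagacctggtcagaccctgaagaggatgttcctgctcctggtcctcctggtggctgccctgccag
Cd200r3, chr16:44943428-44943727, + strand: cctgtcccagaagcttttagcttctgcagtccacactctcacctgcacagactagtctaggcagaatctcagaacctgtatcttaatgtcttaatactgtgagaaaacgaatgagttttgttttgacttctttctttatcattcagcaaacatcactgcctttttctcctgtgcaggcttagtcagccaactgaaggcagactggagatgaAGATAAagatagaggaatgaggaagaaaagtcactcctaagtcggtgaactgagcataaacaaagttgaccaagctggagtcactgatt
Fcer1a, chr1:173227180-173227479, - strand: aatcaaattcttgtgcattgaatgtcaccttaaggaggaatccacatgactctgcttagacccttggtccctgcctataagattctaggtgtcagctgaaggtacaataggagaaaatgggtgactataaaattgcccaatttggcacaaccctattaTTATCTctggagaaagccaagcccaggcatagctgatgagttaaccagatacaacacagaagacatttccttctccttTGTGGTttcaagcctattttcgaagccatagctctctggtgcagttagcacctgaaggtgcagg
Ms4a2, chr19:11623670-11623969, - strand: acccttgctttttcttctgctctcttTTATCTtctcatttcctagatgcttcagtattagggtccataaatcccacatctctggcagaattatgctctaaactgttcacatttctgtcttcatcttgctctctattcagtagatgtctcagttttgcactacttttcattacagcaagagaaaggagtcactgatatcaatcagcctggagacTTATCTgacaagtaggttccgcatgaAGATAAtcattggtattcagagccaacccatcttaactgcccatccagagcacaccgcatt
The Mcpt8 promoter window held TGTGGT at 2 positions and no AGATAA. Those of Cd200r3 and Prss34 each held 1 AGATAA, that of Ms4a2 held 3, and that of Fcer1a held 1 of each sequence. The promoters of Il3ra and Csf2rb2 held neither in this window, and that of Il3ra also lay wholly within the span of its gene. AGATAA was thus found in 4 and TGTGGT in 2 of the 7 members with an entry, while 11.2% and 16.8% of all 32851 promoters of the same length held them. The 2 motifs cannot overlap by more than a base, and a match is a description of letters, not of binding.

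Mcpt8, a serine protease of mouse basophil granules (chromosome 14, 56082163 to 56085499), was present in some bitten libraries and all but absent from the rest. No read was assigned to it in either naive library, and 2, 1 and 3 reads after first exposure, which is 0.07, 0.0558 and 0.129 CPM. In ticks 2x it was at 0.0493, 6.18 and 5.15 CPM (1, 117 and 83 reads), and in ticks 3x at 6.91 and 7.57 CPM (142 and 162 reads) in replicates 1 and 2, with no read in replicate 3. The groups of repeatedly exposed mice therefore each held 2 libraries with many reads and 1 library at the level of naive and first exposure skin. The saliva immune library, at 2.61 CPM (67 reads), lay between these sets.

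Set against a floor of 3 reads over both naive libraries together (0.0709 CPM), the mean of Mcpt8 was at least 53.5-fold higher in ticks 2x and at least 68.1-fold higher in ticks 3x. Means were 4.31 ± 3.42 CPM in repeat exposure, that is ticks 2x and 3x together (SD, n = 6), and 0.0851 ± 0.0391 CPM after first exposure (SD, n = 3). The SD over the repeat exposure libraries was close to their mean, and limma's test, on log2(CPM + 1) with adjustment over all 17064 genes tested, did not call the difference from naive skin (log2 fold change 1.94, SE 0.85, adjusted p = 0.523) or from first exposure (1.82, SE 0.73, adjusted p = 0.206). Mcpt8 reached the minimum of 1 CPM in 2 libraries only through the repeat groups, so it could enter the test only by being high there.

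Prss34, a tryptase of mouse basophils also called mast cell protease 11 (chromosome 17, 25298394 to 25300168), stayed at or near the floor in all 12 libraries and was not tested. It had no read in the naive libraries and 1, 0 and 0 reads after first exposure. It had 2, 5 and 4 reads in ticks 2x, 2, 3 and 1 reads in ticks 3x, and 3 reads in the saliva immune library. Summed over groups this is 0 reads in the 2 naive libraries, 1 read in the 3 first exposure libraries and 17 reads in the 6 repeat exposure libraries. Levels between single libraries are not distinguishable at this depth.

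Cd200r3, an activating receptor of basophils and mast cells that pairs with DAP12 (chromosome 16, 44943596 to 45058365), resembled Mcpt8 in part. It was at 0.638 and 0.959 CPM in naive skin and at 0.734, 0.334 and 1.42 CPM after first exposure. In ticks 2x it was at 1.47, 3.86 and 2.92 CPM, in ticks 3x at 4.92, 4.25 and 0.548 CPM, and in the saliva immune library at 2.69 CPM. The 5 libraries with the most Cd200r3 were the 5 with over 1 CPM of Mcpt8, and its level in 3x replicate 3, where Mcpt8 had no read, lay below both naive libraries. Unlike Mcpt8, Cd200r3 was detected above the floor in every library. In 2x replicate 1, where Mcpt8 had 1 read, it lay just above all naive and first exposure libraries. Its mean was 2.99 ± 1.69 CPM in repeat exposure (SD, n = 6), against 0.798 ± 0.227 CPM in naive skin (n = 2; log2 fold change 1.02, SE 0.47, adjusted p = 0.537, limma).

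**Figure D1:**
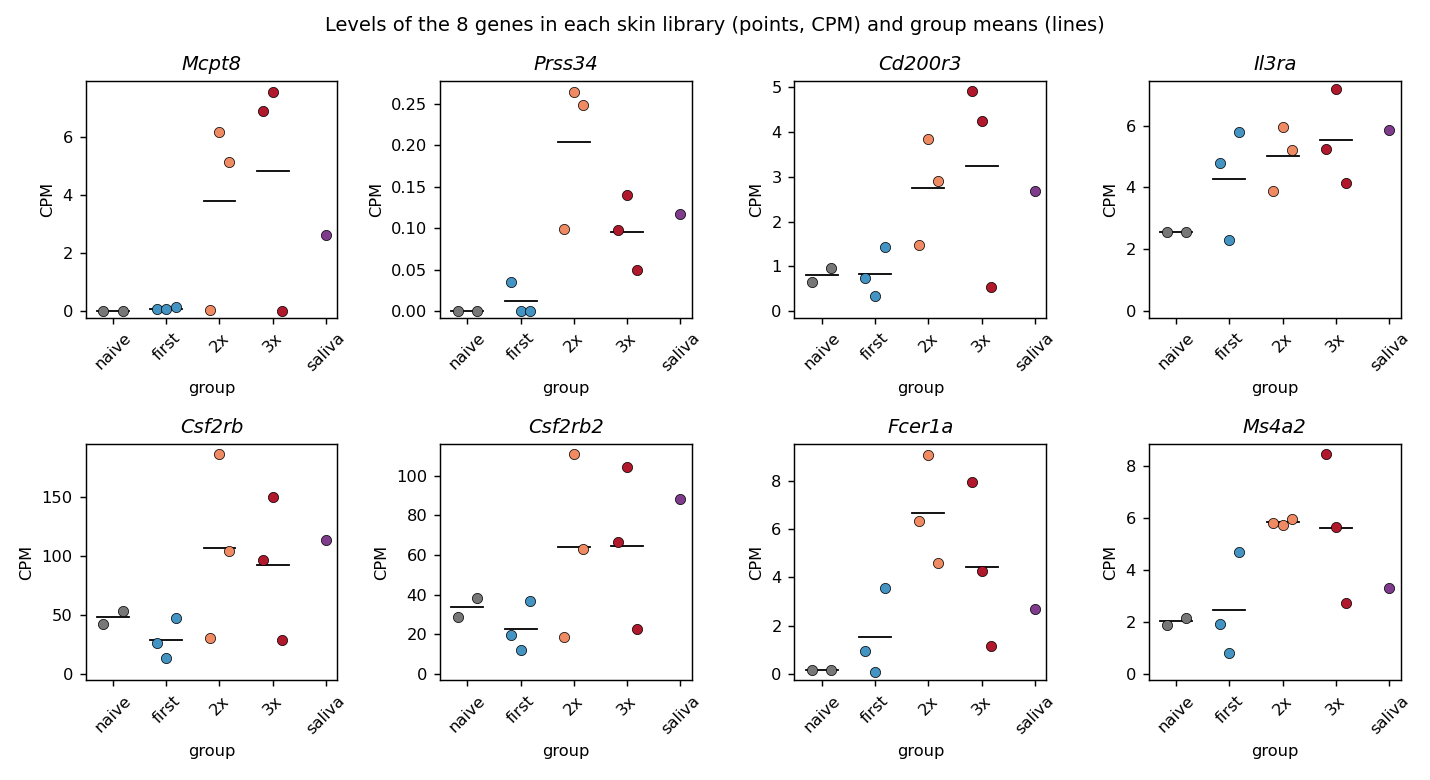
Level of each of the 8 genes in CPM (linear y axes that differ between panels) in the 12 skin libraries, by group, from naive to saliva immune; points are libraries, in replicate order from left to right within a group, and lines are group means. Mcpt8 is high in 2 of 3 libraries of ticks 2x and of ticks 3x, while Fcer1a lies above both naive libraries in all 6.

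The IgE receptor chains were also higher in 2x replicate 1, where Mcpt8 was at 1 read. Fcer1a, the chain that binds IgE (chromosome 1, 173221269 to 173227232), was at 0.168 and 0.16 CPM in naive skin, which is 5 and 2 reads. After first exposure it was at 0.944, 0.0558 (1 read, under the floor) and 3.54 CPM. In ticks 2x it was at 6.34, 9.09 and 4.59 CPM, in ticks 3x at 7.93, 4.25 and 1.15 CPM, and in the saliva immune library at 2.69 CPM. All 6 repeat exposure libraries lay above both naive libraries, and those of ticks 2x also lay above all 3 of first exposure.

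Outside the repeat groups Fcer1a, like Cd200r3, reached 1 CPM only in first exposure replicate 3 and in the saliva immune library, which entered no fit. Both genes thus entered the test only by being high in repeat exposure. Means of Fcer1a were 5.56 ± 2.86 CPM in repeat exposure (SD, n = 6) and 0.164 ± 0.00576 CPM in naive skin (SD, n = 2). The naive values rest on 5 and 2 reads, the latter under the floor, so their SD takes no account of counting error. The log2 fold change was 2.34 (SE 0.60, unadjusted p = 0.00284, adjusted p = 0.341, limma). Against first exposure (1.51 ± 1.81 CPM, n = 3) it was 1.49 (SE 0.52, adjusted p = 0.169), and without first exposure replicate 3, the library of that group with the most Fcer1a, it was 2.04 and passed the threshold (adjusted p = 0.0376). Replicates 1 and 2, the first exposure libraries then left, held 25760 and 29440 CPM of the hair follicle markers, and replicate 3 held 57.7 CPM. Fcer1a was under 1 CPM in both, so that no fitted library outside the repeat groups then reached 1 CPM.

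Ms4a2, the signal-amplifying beta chain of the same receptor (chromosome 19, 11615517 to 11623790), was at 1.88 and 2.16 CPM in naive skin and at 1.92, 0.78 and 4.7 CPM after first exposure. It was at 5.8, 5.71 and 5.96 CPM in ticks 2x, at 8.47, 5.66 and 2.74 CPM in ticks 3x, and at 3.31 CPM in the saliva immune library. The 3 ticks 2x libraries were closer together than for any other tested member and lay above every naive and first exposure library. Means were 5.72 ± 1.82 CPM in repeat exposure and 2.02 ± 0.195 CPM in naive skin (SD, n = 6 and 2; log2 fold change 1.11, SE 0.41, adjusted p = 0.469, limma). Against first exposure the log2 fold change was 1.07 (SE 0.35, adjusted p = 0.152), and 1.51 without first exposure replicate 3 (adjusted p = 0.0268). Leaving out that library brought the genes called over the whole table to 2260, against 140 with it. It had far lower hair follicle levels than replicates 1 and 2 of first exposure.

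Because mast cells carry the same receptor, mast cell markers were read beside these genes. All 8 of the mast cell markers (among them the proteases Mcpt4, Cma1 and Tpsb2) lay higher in repeat exposure than in naive skin, as did 53% of all genes. Their median log2 fold change was 1.04, against 0.022 over all genes. Limma called 0 (3 at an unadjusted p under 0.05, where 9.33% of all genes were). Kit was nearly level over naive skin, at 0.21 in ticks 2x and 0.18 in ticks 3x (SE 0.62), and was at 0.54 after first exposure. Over first exposure 7 of 8 lay higher, all but Kit, where 43.2% of all genes did (median 1.30, and -0.063 over all genes). At an unadjusted p under 0.05 were 5 of the 8 markers, where 20.6% of all genes were. Their summed level was 203 and 267 CPM in naive skin, 142 to 466 CPM after first exposure, 490 to 620 CPM in ticks 2x, 275 to 780 CPM in ticks 3x and 335 CPM in the saliva immune library, and none was listed at 0 in any library. The 2x library with 1 read of Mcpt8 had 620 CPM, the second highest sum, and the 3x library with none had 275 CPM.

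Relative to Cpa3, a carboxypeptidase abundant in mast cells and also found in mouse basophils, Ms4a2 was nearly level across the series, while Fcer1a was not. There were 3.29 to 5.74 CPM of Ms4a2 per 100 CPM of Cpa3 over the 12 libraries, and 0.294 to 6.57 CPM of Fcer1a. The Fcer1a ratio was 0.294 and 0.354 in naive skin and 2.2, 0.303 and 3.43 after first exposure. Of these, 0.354 and 0.303 rest on 2 and 1 reads of Fcer1a, under the floor. The ratio was 4.89, 6.57 and 4.43 in ticks 2x, 4.67, 3.61 and 1.94 in ticks 3x and 3.25 in the saliva immune library. Each of the 6 repeat exposure libraries thus lay above both naive libraries in this ratio as well, including both libraries with 0 or 1 read of Mcpt8. Cd200r3 ran from 0.929 to 3.61 CPM per 100 CPM of Cpa3, with its 5 highest values in the 5 libraries that held over 1 CPM of Mcpt8. The part of mast cells in the levels of Fcer1a, Ms4a2 and Cd200r3 was not tested.

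**Figure D2:**
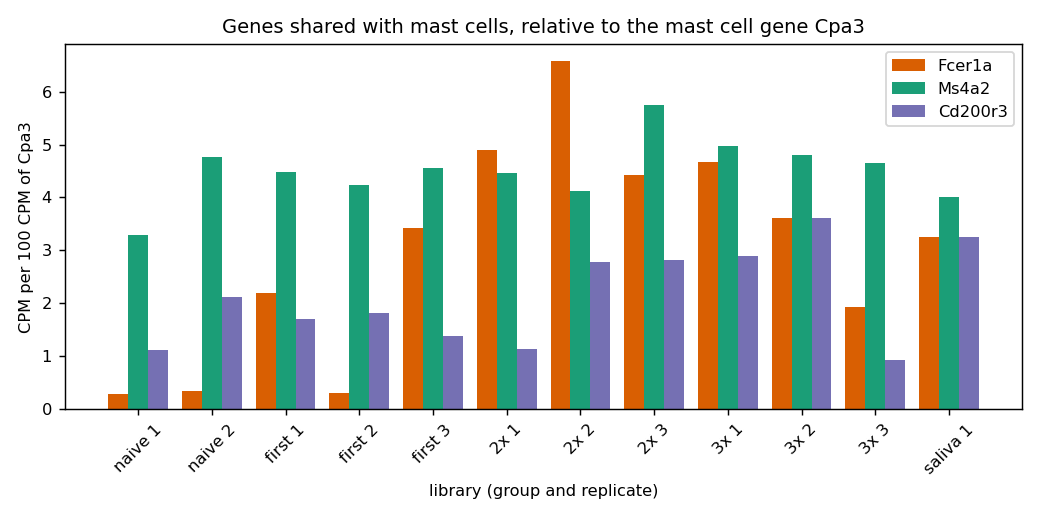
CPM of Fcer1a, Ms4a2 and Cd200r3 per 100 CPM of the mast cell gene Cpa3 (y axis) in each library (x axis, from naive to saliva immune, with replicate number). The Ms4a2 bars stay between 3.29 and 5.74, while the Fcer1a bars run from 0.294 in naive replicate 1 to 6.57 in 2x replicate 2.

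Il3ra, the chain that gives the IL-3 receptor its specificity (chromosome 14, 14345912 to 14355493), had the narrowest range of the tested members across libraries as a ratio, with a highest value 3.15 times the lowest. It was at 2.55 and 2.56 CPM in naive skin and at 4.79, 2.28 and 5.78 CPM after first exposure. In ticks 2x it was at 3.88, 5.97 and 5.21 CPM, in ticks 3x at 5.26, 7.2 and 4.13 CPM, and in the saliva immune library at 5.85 CPM. All 6 repeat exposure libraries lay above both naive libraries, and so did 2 of 3 after first exposure. Means were 5.28 ± 1.22 CPM in repeat exposure and 2.55 ± 0.00288 CPM in naive skin (SD, n = 6 and 2; log2 fold change 0.80, SE 0.28, adjusted p = 0.445, limma). Against first exposure (4.28 ± 1.8 CPM, n = 3) the log2 fold change was 0.29 (SE 0.24, adjusted p = 0.478), and -0.02 without first exposure replicate 2.

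Csf2rb and Csf2rb2 encode the beta chains that signal. Csf2rb is the common chain for IL-3, IL-5 and GM-CSF, and Csf2rb2 is a second chain found in mice that serves IL-3. They lie on opposite strands of chromosome 15 (78325800 to 78351001 and 78282507 to 78305721) with 20078 bases between them. Their coding sequences (GENCODE M21, GRCm38) were 95.2% identical over 2631 aligned bases, and 26% of all windows of 50 bases of the Csf2rb coding sequence occur unchanged in Csf2rb2. To show where reads can and cannot be told apart, the window of 90 coding bases with the most differences (16, in capitals) is given for both genes.
Csf2rb, chr15:78338897-78338986, + strand: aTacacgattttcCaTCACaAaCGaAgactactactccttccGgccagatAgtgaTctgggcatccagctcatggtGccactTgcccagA
Csf2rb2, chr15:78294345-78294434, - strand: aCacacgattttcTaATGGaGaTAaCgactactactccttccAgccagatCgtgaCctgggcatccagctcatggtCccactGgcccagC
The longest stretch without a difference runs over 242 coding bases, chr15:78348577-78348818 on the + strand in Csf2rb and chr15:78284630-78284871 on the - strand in Csf2rb2.
Csf2rb and Csf2rb2: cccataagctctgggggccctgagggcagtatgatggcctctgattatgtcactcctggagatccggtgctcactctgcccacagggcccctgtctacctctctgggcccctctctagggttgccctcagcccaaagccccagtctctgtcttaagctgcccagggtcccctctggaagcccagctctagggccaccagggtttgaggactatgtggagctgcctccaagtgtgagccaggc
A read that falls within this stretch cannot be assigned to either gene by its sequence.

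In units of the estimated CPM of 1 read, all 72 values of the other 6 members were whole within 0.02 reads. Of the 24 values of Csf2rb and Csf2rb2, 3 were, and of the 12 sums of both genes 8 were. Within 0.06 reads, 4 of 24 single values and 11 of 12 sums were whole. How reads were assigned to the pair was not tested, and values of each gene alone are uncertain.

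Csf2rb was at 42.4 and 53.4 CPM in naive skin and at 25.8, 13.5 and 47.6 CPM after first exposure. In ticks 2x it was at 30.3, 187 and 104 CPM, in ticks 3x at 96.7, 150 and 29 CPM, and in the saliva immune library at 114 CPM. Csf2rb2 was at 28.7 and 38.3 CPM in naive skin, at 19.5, 12 and 36.6 CPM after first exposure, at 18.6, 111 and 63 CPM in ticks 2x, at 66.8, 104 and 22.5 CPM in ticks 3x and at 88.2 CPM in the saliva immune library. For both genes 2x replicate 1 and 3x replicate 3 lay below both naive libraries, while the other 4 repeat exposure libraries and the saliva immune library lay above them. These are the same 2 low and 5 high libraries as for Mcpt8.

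The sum of both chains averaged 81.4 ± 14.7 CPM in naive skin (SD, n = 2), 51.7 ± 29.9 CPM with first exposure (SD, n = 3) and 164 ± 102 CPM in repeat exposure (SD, n = 6). For Csf2rb alone the log2 fold change of repeat exposure was 0.73 over naive skin (SE 0.72, adjusted p = 0.777, limma) and 1.60 over first exposure (SE 0.62, adjusted p = 0.196). For Csf2rb2 it was 0.65 (SE 0.68, adjusted p = 0.797) and 1.31 (SE 0.59, adjusted p = 0.239). Csf2rb held 61.9%, 62.6% and 62.3% of the pair's CPM in ticks 2x, more than in any of the other 9 libraries. The share was 59.6% and 58.2% in naive skin, 57%, 53.1% and 56.5% after first exposure, 59.1%, 59% and 56.3% in ticks 3x and 56.4% in the saliva immune library. This split was noticed in the values and not tested.

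**Figure D3:**
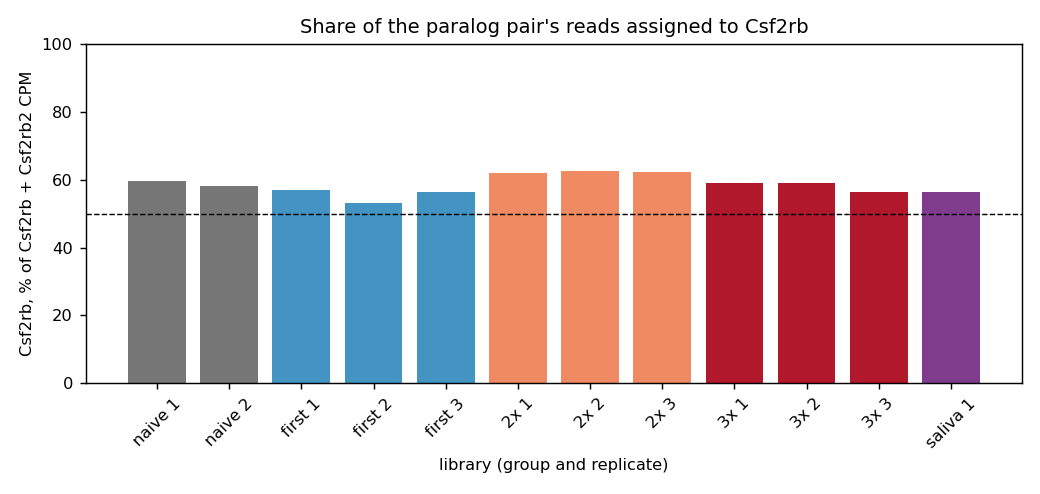
Share of the summed CPM of Csf2rb and Csf2rb2 that was assigned to Csf2rb (y axis, percent, from 0; dashed line at equal shares) in each library (x axis). The 3 ticks 2x libraries have the highest shares, 61.9% to 62.6%, and first exposure replicate 2 the lowest, 53.1%.

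Both beta chains are also made by neutrophils, eosinophils, monocytes and macrophages, and markers of these cells were read beside them. The summed level of the 8 neutrophil markers was 21.2 and 60.3 CPM in naive skin, 17.2 to 31.2 CPM after first exposure, 29 to 479 CPM in ticks 2x, 13.6 to 84 CPM in ticks 3x and 83.8 CPM in the saliva immune library, with up to 3 of 8 listed at 0 in a library. Of the 6 eosinophil markers found, 4 could be tested, and the sum of all 6 was 7.35 and 18 CPM in naive skin, 2.79 to 18.8 CPM after first exposure, 13.1 to 21 CPM in ticks 2x, 13.4 to 21.5 CPM in ticks 3x and 63.4 CPM in the saliva immune library. The 8 monocyte and macrophage markers summed to 557 and 849 CPM in naive skin, 319 to 1317 CPM after first exposure, 888 to 1527 CPM in ticks 2x, 560.5 to 1336 CPM in ticks 3x and 1023 CPM in the saliva immune library. In 2x replicate 1 the neutrophil sum was 29 CPM, the lowest of ticks 2x, but the eosinophil sum of 21 CPM was the highest of that group and the monocyte and macrophage sum of 947 CPM lay between those of the other libraries. In 3x replicate 3 the sums were 13.6, 13.4 and 560.5 CPM, each the lowest of ticks 3x. Markers of dendritic and Langerhans cells (6 genes) were read as well. Their sum was 777 and 805 CPM in naive skin and 193 to 926 CPM after first exposure. It was 668 to 1070 CPM in ticks 2x, 752 to 1040 CPM in ticks 3x and 1110 CPM in the saliva immune library. Its highest values were those of the libraries with over 1 CPM of Mcpt8. Both 2x replicate 1 and 3x replicate 3 lay below the naive libraries in it. The part of any of these cells in the beta chain levels was not tested.

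The 2 repeat exposure libraries with 0 or 1 read of Mcpt8 stood far apart in hair follicle content. The summed level of the 14 follicle markers was 23650 CPM in 2x replicate 1 and 18.5 CPM in 3x replicate 3, while the 5 libraries with over 1 CPM of Mcpt8 lay between 12.6 and 4796 CPM. With the follicle mean as a covariate, the log2 fold changes of repeat exposure over naive skin were 1.93 for Mcpt8, 2.34 for Fcer1a and 0.72 for Csf2rb, each within 0.01 of those without it. Over first exposure they were 1.76 for Mcpt8, 1.42 for Fcer1a, 0.98 for Ms4a2, 1.37 for Csf2rb and 0.22 for Il3ra, against 1.82, 1.49, 1.07, 1.60 and 0.29 without it. All 14 follicle markers lay lower in repeat exposure than with first exposure (median log2 fold change -2.74), where 43.2% of all genes lay higher. Limma called 0 (0 at an unadjusted p under 0.05, where 20.6% of all genes were).

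Over all tests, limma called 0 of the 7 tested members in each of the 8 comparisons. Of all genes it called 0.0117% for first exposure, 0.0352% for ticks 2x, 0.00586% for ticks 3x and 0% for repeat exposure over naive skin. Over first exposure it called 0% for ticks 2x and for ticks 3x and 0.82% for repeat exposure, and 0% for ticks 3x over ticks 2x. At an unadjusted p under 0.05, 4 members lay higher in repeat exposure than in naive skin (Fcer1a, Il3ra, Ms4a2 and Mcpt8), where 5.58% of all genes did. Over first exposure 6 of 7 did, all but Il3ra, where 9.36% of all genes did. Since Mcpt8, Cd200r3 and Fcer1a passed the filter on low values only through the repeat groups, these counts, and the counts and medians that follow, describe the genes and are not set against the shares as a result. Of the 4 members that reached 1 CPM in 4 or 5 of the 5 other libraries, Il3ra and Ms4a2 did so over naive skin and Csf2rb, Csf2rb2 and Ms4a2 over first exposure. Reads of Csf2rb and Csf2rb2 cannot always be told apart, so this pair is not independent in any count of members. At the same threshold 0 members lay higher in first exposure than in naive skin (10.1% of genes), 3 in ticks 2x (5.71%) and 2 in ticks 3x (4.83%). Over first exposure 2 did in ticks 2x (6.49%) and 1 in ticks 3x (8.2%), and 0 did in ticks 3x over ticks 2x (3.56%).

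In fold change, all 7 tested members lay above 0 in ticks 2x, ticks 3x and repeat exposure over naive skin, as did 51.9%, 53.2% and 53% of all genes. They also did so over first exposure, where 41.3%, 46.2% and 43.2% of genes did, and these comparisons share libraries. In first exposure over naive skin 4 of 7 lay above 0 (57.9% of genes), as in ticks 3x over ticks 2x (55.1% of genes). The median log2 fold change over naive skin was 0.04 for first exposure, 1.01 for ticks 2x and 1.02 for ticks 3x, against medians over all genes of 0.085, 0.014 and 0.024. Since Mcpt8 had no read in naive skin, its fitted value is no bound, but at its bound (5.93 on the log2 scale for repeat exposure) it stays above the median.

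In ticks 2x 5 members lay above both naive libraries without overlap, where 14.7% of genes did so. Of these, Mcpt8 did so in replicate 1 by 1 read against none, which is under the floor. In ticks 3x these were Fcer1a, Il3ra and Ms4a2, where 15.5% of genes did so, and the same 3 in repeat exposure, where 6.41% did so. With first exposure it was Mcpt8 alone, at 1 to 3 reads against none, where 21% of genes did so. Over first exposure, 3 members did not overlap in ticks 2x (6.9% of genes), and 0 in ticks 3x (9.06%) or in repeat exposure (3.07%). Between ticks 3x and ticks 2x 0 members lay apart (7.3% of genes higher), with differences of -0.68 (Fcer1a, SE 0.60) to 0.18 (Mcpt8, SE 0.89) and adjusted p between 0.91 and 1.

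**Figure D4:**
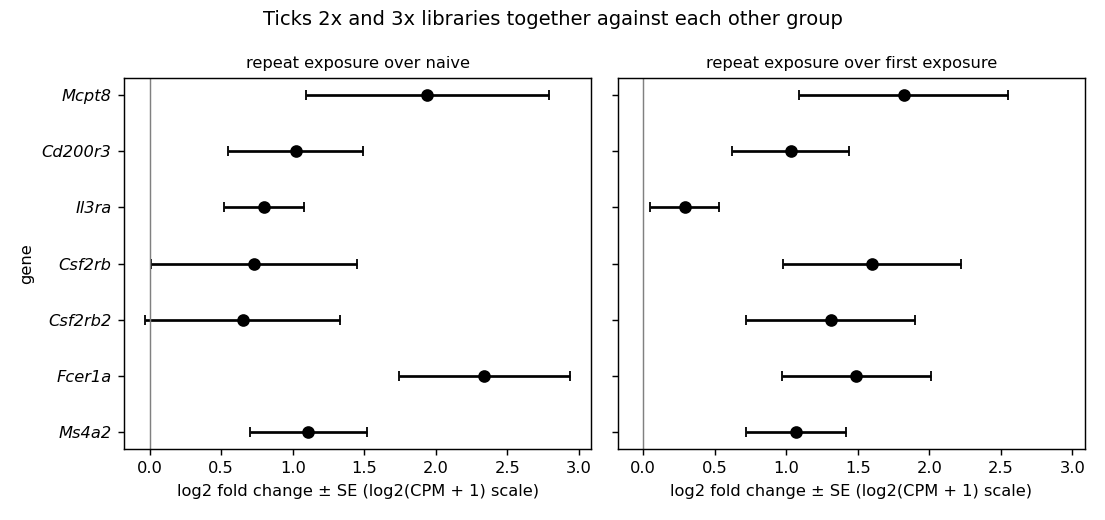
Fitted log2 fold change on the log2(CPM + 1) scale (x axis) of the 7 tested members (y axis) for repeat exposure over naive skin (left) and over first exposure (right); points are limma's estimates and bars their SE. All 7 points lie above 0 in both panels, Fcer1a being highest on the left (2.34) and Mcpt8 on the right (1.82).

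Per kilobase of the longest annotated transcript, the median level over the 12 libraries was 10.3 CPM per kb for Csf2rb and 7.91 for Csf2rb2. It was 3.12 for Fcer1a, 2.16 for Il3ra and 1.68 for Ms4a2, and these 3 overlapped widely in range over libraries. Cd200r3 followed at 0.374, Mcpt8 at 0.106 and Prss34 at 0.0604 CPM per kb. In the library with the most Mcpt8, its level was 8.01 CPM per kb, below the highest level of Fcer1a (9.1 CPM per kb) and above that of Ms4a2 (3.54 CPM per kb).

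The genes whose profile over the 12 libraries was most like that of Mcpt8 were sought among 14049 tested genes reaching 2 CPM, without predicted genes, each scaled from 0 in its lowest to 1 in its highest library on log2(CPM + 1). The measure was the mean absolute difference between scaled profiles, which had a median of 0.449 over these genes. The closest were Chil3, the chitinase-like protein Ym1 of alternatively activated macrophages (0.0612), Fcrlb, an Fc receptor-like protein (0.071), and the homeobox gene Msx3 (0.0903). Gzmb, the cytotoxic protease granzyme B (0.0919), Spib, a transcription factor of B cells and plasmacytoid dendritic cells (0.0974), Tnfrsf4, the T cell costimulator OX40 (0.104), Mcpt1, a mucosal mast cell protease (0.105), and Arg1, the arginase of alternatively activated macrophages (0.106), followed. Among the members Cd200r3 was closest, at 0.148 (place 56 in this order), and Ms4a2 farthest, at 0.271. Cd200r3 itself lay nearer to Csf2rb (0.129) and Csf2rb2 (0.139) than to Mcpt8, and about as near to Ms4a2 (0.153) and Fcer1a (0.154).

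Chil3 was at 0.202 and 0.479 CPM in naive skin and at 0.385, 0.112 and 1.64 CPM after first exposure. It was at 0.983, 46.2 and 24.8 CPM in ticks 2x and at 28.8 and 52.6 CPM in replicates 1 and 2 of ticks 3x, was listed at 0 in replicate 3, and was at 10.3 CPM in the saliva immune library. Arg1 was at 30.6 and 31.2 CPM in naive skin and at 31.9, 37.1 and 45.4 CPM after first exposure. It was at 41.1, 354 and 445 CPM in ticks 2x, at 250, 413 and 24.3 CPM in ticks 3x and at 306 CPM in the saliva immune library. Both genes were thus high in the same 5 libraries as Mcpt8. These genes were picked for this likeness, which is a description.

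**Figure D5:**
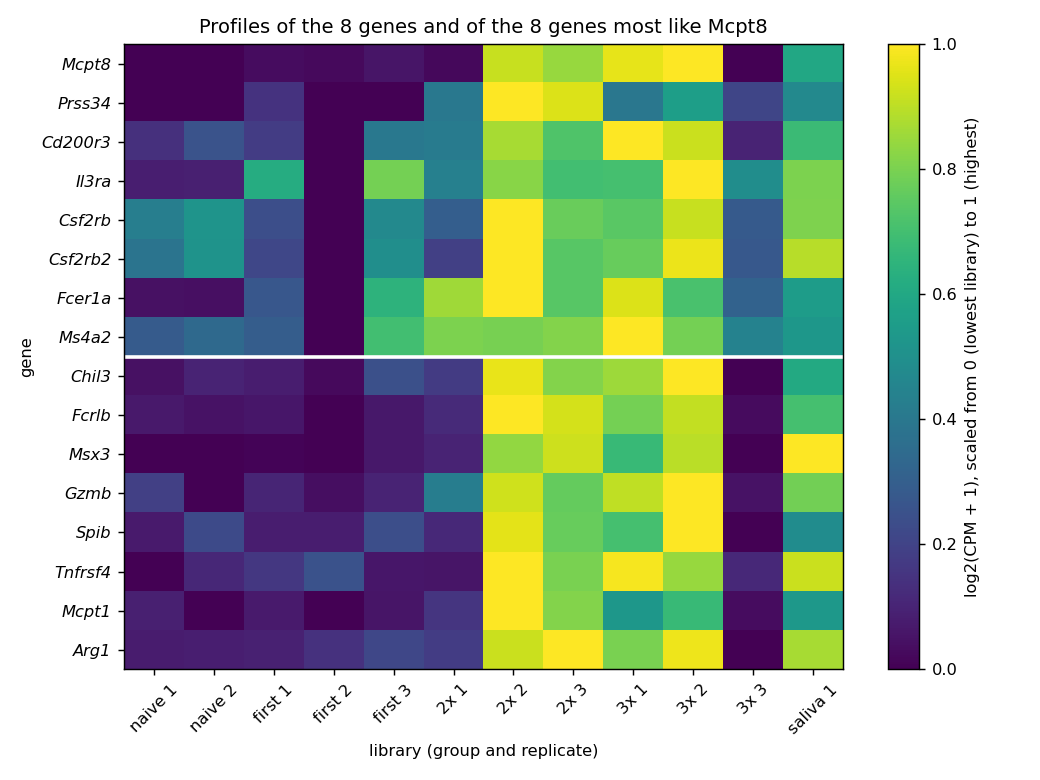
Scaled log2(CPM + 1) (colour, 0 in a gene's lowest and 1 in its highest library) of the 8 genes (above the white line) and of the 8 genes most like Mcpt8 (below it) in each library (columns, from naive to saliva immune). The rows of Mcpt8 and of the 8 genes below the line are bright in the same 5 libraries, while Fcer1a and Ms4a2 are also bright in 2x replicate 1.

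IL-3 itself was near the floor. Il3 had no read in the naive and first exposure libraries. It had 0, 3 and 1 reads in ticks 2x, 2, 2 and 0 reads in ticks 3x and 3 reads in the saliva immune library, so that all 5 libraries with a read of Il3 were those with over 1 CPM of Mcpt8. Differences at this level are not distinguishable from counting error.

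Of 18 genes of the IL-3 pathway (ligands, receptors, JAK-STAT signalling and its targets), 15 could be tested. In repeat exposure 9 lay above and 6 below naive skin (median log2 fold change 0.25), all 15 lay above first exposure (median 0.48), and limma called 0 in either (2 and 6 at an unadjusted p under 0.05). Over all genes 53% lay above 0 over naive skin and 43.2% over first exposure, and 9.33% and 20.6% were at an unadjusted p under 0.05 in either direction. Jak1, the kinase, had a log2 fold change of -0.22 against naive skin (SE 0.32, adjusted p = 0.873). Socs3, the feedback inhibitor of cytokine signalling, had one of 0.26 (SE 0.67, adjusted p = 0.947), and of 2.41 against first exposure (SE 0.58, adjusted p = 0.0814).

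Of 12 genes of IgE receptor signalling, among them the receptor's gamma chain Fcer1g, 10 lay higher and 2 lower in repeat exposure than in naive skin. Their median log2 fold change was 0.76, against 0.022 over all genes, of which 53% lay above 0. Limma called 0 (2 at an unadjusted p under 0.05, where 9.33% of all genes were). Syk, the kinase recruited by the receptor, had a log2 fold change of 0.83 (SE 0.36, adjusted p = 0.526), and Plcg1, the phospholipase, one of -0.12 (SE 0.18, adjusted p = 0.874). Among 18 tested genes of a list of 20 other basophil genes, 17 lay higher and 1 lower (median 0.71), and limma called 0 (3 at an unadjusted p under 0.05, beside the same shares over all genes). The most abundant, the transcription factors Cebpa and Runx1, had log2 fold changes of 0.14 (SE 0.25, adjusted p = 0.907) and 0.12 (SE 0.51, adjusted p = 0.973). Hdc, the enzyme that makes histamine in basophils and mast cells, was at 10.1 and 20.4 CPM in naive skin, 5.56, 2.95 and 10.7 CPM with first exposure, 13.4, 117 and 62.2 CPM in ticks 2x, 41.3, 62.3 and 13.9 CPM in ticks 3x and 18.6 CPM in the saliva immune library. Its 4 highest values fell in the 4 repeat exposure libraries with over 1 CPM of Mcpt8. In the saliva immune library, also over 1 CPM of Mcpt8, Hdc lay below naive replicate 2. Against first exposure its log2 fold change was 2.58 (SE 0.67, adjusted p = 0.0929, limma), without overlap of the libraries. Over naive skin that of Hdc was 1.62 in ticks 2x (SE 0.9, adjusted p = 0.537) and 1.15 in ticks 3x (SE 0.9, adjusted p = 0.861). Libraries overlapped in both. In first exposure over naive skin it was -1.2 (SE 0.9, adjusted p = 0.522).

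Il4, the type 2 cytokine that basophils and T cells release, was at 0.403 and 0.4 CPM in naive skin and at 0.105, 0.223 and 0.259 CPM after first exposure. It was at 0.246, 0.793 and 0.683 CPM in ticks 2x and at 1.75 and 2.76 CPM in replicates 1 and 2 of ticks 3x, had no read in replicate 3, and was at 2.07 CPM in the saliva immune library. The 5 libraries with over 1 CPM of Mcpt8 held the 5 highest values. Of 8 cytokines and chemokines that act on basophils, 6 could be tested. In repeat exposure 5 lay above and 1 below naive skin (median log2 fold change 0.41), where 53% of all genes lay above. Limma called 0 (0 at an unadjusted p under 0.05, where 9.33% of all genes were). Ccl11, the chemokine eotaxin, had a log2 fold change of 0.45 (SE 0.38, adjusted p = 0.737). Il33, the alarmin, was at 67 and 93.6 CPM in naive skin, 16.8 to 133 CPM after first exposure, 34.9 to 271 CPM in ticks 2x and 53.6 to 127 CPM in ticks 3x (log2 fold change of repeat exposure over naive skin 0.28, SE 0.80, adjusted p = 0.952).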

How the data were processed

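The authors deposited CPM values per gene and library, to which 0.0001 had been added in every cell, as the values show. Per the submitters' processing notes, STAR and Partek 8.0.19 were used with GRCm38.p6. The sources used here name no annotation, counting program or strand setting. A gene listed at the added 0.0001 is given as having no read. The members and lists were chosen with earlier results of these data known.

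The CPM of 1 read was estimated per library from values between 0.01 and 3 CPM. Between 73.4% and 79.3% of these fell on whole multiples within 0.02 reads. Whole reads could not be recovered for all genes, so no count test was run.

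A gene was tested when 2 or more of the 11 libraries in the fits reached 1 CPM, which 17064 genes did. These were fitted on log2(CPM + 1) with limma 3.58.1 (R 4.3.3) with a variance trend, in 4 groups, or in 3 groups where ticks 2x and 3x were pooled as repeat exposure. The saliva immune library, a single one, entered no fit. The threshold was 0.05 on p-values adjusted by Benjamini-Hochberg over all genes tested. No paired analysis was possible because the labels carry no number that links samples of different groups. All 8 members were named with every value. Of each further list the 2 genes with the highest mean CPM were named where none was called, with Il3, Il4 and Hdc. Of 8 eosinophil markers, 6 were found by symbol. Alternatives were other pseudocounts, filters and scalings, robust moderation, fits of only the groups compared, a hair follicle covariate, the summed paralogs and leaving out each library.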

Additional observations from a re-analysis of the deposited data

Results flagged for a closer look

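The saliva immune library entered no test. In it, the 7 tested members lay above both naive libraries, as did 44.2% of 17060 tested genes with a symbol of their own. Prss34 was at 3 reads, the floor, against none in naive skin. Mcpt8 was at 2.61 CPM, against no read in naive skin, and Cd200r3 at 2.69 CPM, against 0.638 and 0.959 CPM. Fcer1a was at 2.69 CPM, against 0.168 and 0.16 CPM, and Ms4a2 at 3.31 CPM, against 1.88 and 2.16 CPM. Il3ra was at 5.85 CPM, against 2.55 and 2.56 CPM. Csf2rb was at 114 CPM, against 42.4 and 53.4 CPM, and Csf2rb2 at 88.2 CPM, against 28.7 and 38.3 CPM. A single library has no replicate check, and it belongs to the other title series than the naive libraries, so saliva immunity and title series cannot be told apart.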

How the results depend on the processing

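Of 1128 fold changes of members under the alternatives, 30 changed sign, in 10 of 56 results, and 2 passed the threshold, those of Fcer1a and Ms4a2 against first exposure without first exposure replicate 3. In repeat exposure over naive skin no member changed sign, and Mcpt8 ranged from 1.70 to 4.11 and Fcer1a from 2.18 to 4.18, the highest with a pseudocount of 0.1. Apart from leaving out libraries, the sign changes were these: in first exposure over naive skin 0.027 for Cd200r3 with the hair follicle covariate, and -0.048, -0.023 and -0.071 for Ms4a2 with a pseudocount of 0.1, median-of-ratios scaling and quantile normalization, and in ticks 3x over ticks 2x -0.041, -0.14, -0.038 and -0.11 for Cd200r3 with pseudocounts of 0.5 and 0.1, median-of-ratios scaling and quantile normalization, and -0.061 for Csf2rb2 as summed paralogs. On leaving out 1 library the ranges of results that changed sign were, for first exposure over naive skin, -0.24 to 0.19 for Cd200r3 and -0.40 to 0.44 for Ms4a2, for ticks 2x over first exposure, -0.072 to 0.45 for Il3ra, for repeat exposure over first exposure, -0.020 to 0.50 for Il3ra, for ticks 3x over ticks 2x, -0.70 to 1.20 for Mcpt8, -0.34 to 0.63 for Cd200r3, -0.072 to 0.27 for Il3ra, -0.88 to 0.51 for Csf2rb, -0.62 to 0.70 for Csf2rb2, -0.45 to 0.22 for Ms4a2.

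Genes called over the whole table varied more. For first exposure over naive skin the count was 2, 9 with pseudocount 0.5 or pseudocount 0.1 or no filter on low values or robust moderation, 8 with filter at 5 CPM, 26 with median-of-ratios scaling, and 0 to 600 on leaving out 1 library (most without first exposure replicate 3). For ticks 2x over naive skin the count was 6, 11 with no filter on low values, 3 with filter at 5 CPM or quantile normalization, 0 in fits of only the groups compared, and 0 to 5 on leaving out 1 library (most without first exposure replicate 3 or ticks 2x replicate 1). For ticks 3x over naive skin the count was 1, 5 with no filter on low values, 2 with quantile normalization, 0 in fits of only the groups compared, and 0 to 1 on leaving out 1 library. For repeat exposure over naive skin the count was 0, 8 with no filter on low values, and 0 to 6 on leaving out 1 library (most without ticks 3x replicate 3). For ticks 2x over first exposure the count was 0, 0 to 137 on leaving out 1 library (most without first exposure replicate 3). For ticks 3x over first exposure the count was 0, 0 to 1372 on leaving out 1 library (most without first exposure replicate 3). For repeat exposure over first exposure the count was 140, 50 with pseudocount 0.1, 259 with no filter on low values, 7 with filter at 5 CPM, 31 with quantile normalization, 83 in fits of only the groups compared, 44 with hair follicle covariate, and 0 to 2260 on leaving out 1 library (most without first exposure replicate 3). For ticks 3x over ticks 2x the count was 0, 0 to 1 on leaving out 1 library. The cause was not tested.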
